A study of Physcomitrium patens with 10 samples.

Results

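Partially rehydrated (PRE) gametophores of the moss Physcomitrium patens were compared with severely dehydrated, desiccated (SDH) ones, the first step of rewetting. The 2 states were chosen by sample title and hold 4 of the 10 small RNA samples of the series, with 2 replicates each. The other states were hydrated (HD), dehydrated to a lesser degree than SDH (MDH) and fully rehydrated (FRE). The labels' protocol calls MDH mild, and the treatment field of an MDH sample calls it moderate. The plants of every state were gametophores, the leafy shoots, grown on BCD medium. The labels name no strain, mutation, age or duration of drying or rewetting. The treatment field differs from the title in 7 of the 10 samples, all 4 of PRE and SDH and 3 of MDH and FRE, so the levels given for those states carry the same doubt. It calls the PRE samples severely and the SDH samples moderately dehydrated, while the data columns carry the names of the titles, and the titles were followed. Levels are in RPM (reads per 1000000). The deposited tables give 1 value per state for 280 mature miRNA names, and no value of a single replicate. No difference below therefore has a replicate check, an error or a p-value. The comparison took 211 of the 280 names, those with 3 RPM or more in the higher of the 2 states. A name is called where log2((PRE RPM + 1)/(SDH RPM + 1)) was at least 1 up or down, which is 2-fold, and "rose" or "fell" is said of called names alone. Printed folds are plain ratios of RPM and are left out where a level was under 1 RPM.

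In plants, a DICER-LIKE enzyme cuts a hairpin precursor into a short duplex. The strand loaded into an ARGONAUTE protein becomes the miRNA and guides the slicing of matching mRNAs, and its partner, the star strand, is mostly degraded. Names of 1 family number share most of their sequence and usually their targets, and reads that match several members cannot be assigned to a single one. Mosses lose and regain water with their surroundings, and Physcomitrium patens gametophores are a standard material for the study of dehydration and rewetting.

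Most miRNAs differed less than 2-fold between the 2 states. Of 211 names, 13 rose and 7 fell in PRE relative to SDH, which is 9.48% called, 6.16% higher and 3.32% lower. In samples of whole shoots, fewer cells that express a miRNA and less of it per cell cannot be told apart, and the miRNA tables hold no marker to check the labelled tissue. In log2 fold change, the calls upward were led by miR1043-3p, the near-identical miR529e and miR529f, and miR903. The calls downward were led by miR1052 and miR1050. The 13 names came from 12 families and the 7 from 6, with miR902 in both. Past 4-fold lay 7 names upward and 1 downward. Among the 7 are miR529e and miR529f, which are near-identical. miR408b and miR1073-5p, also among them, were under 1 RPM in SDH and reached the minimum of 3 RPM through PRE alone. Over the 211 names the log2 fold change had a median of -0.18, with quartiles of -0.50 and 0.29, and 126 were negative against 85 positive.

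RPM summed over all names was 407334 in PRE and 629248 in SDH, 1.54-fold lower in PRE, and with near-identical copies counted once it was 226805 in PRE and 350201 in SDH. It was 831487 in HD, 503544 in MDH and 571803 in FRE. Orders among the 5 states are given in RPM as deposited, and for the called names also after scaling. To which reads RPM refers is not stated, so fewer miRNA reads and more reads of other small RNA cannot be told apart. The split of calls depended on this total. Median-of-ratios scaling moved the median by 0.14 and gave 15 higher and 7 lower. With each state scaled to its own sum over all names, an alternative chosen after seeing the data, the median was 0.41 with 47 higher and 1 lower, miR1052. All 13 names called higher stayed so under both scalings. Names above 0 numbered 260 in PRE and 257 in SDH, and the 10 most abundant names made up 70.5% of the summed RPM in PRE and 75.4% in SDH.

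**Figure D1:**
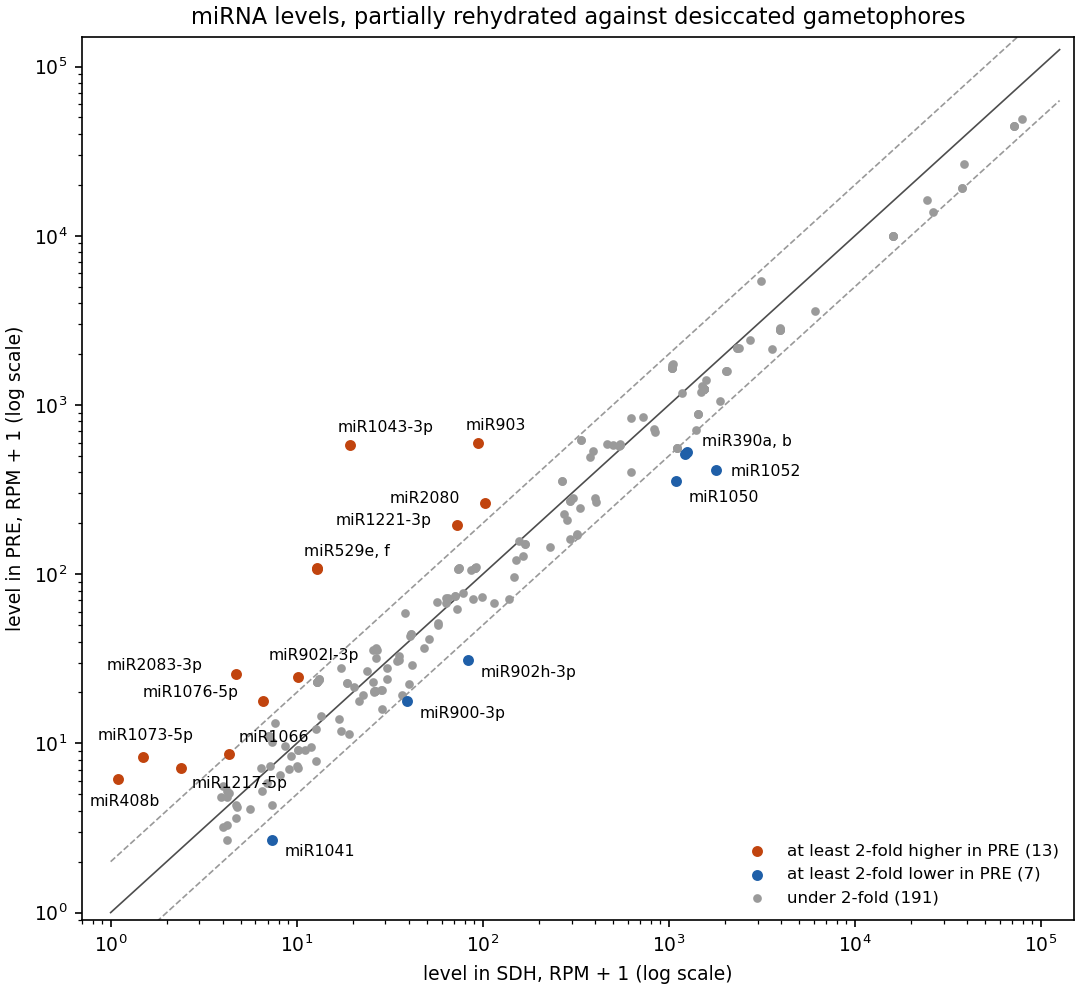
Level of each of the 211 tested names in PRE (vertical) and SDH (horizontal), in RPM + 1 on log axes, 1 deposited value per state. The solid line marks equal levels and the dashed lines 2-fold; 13 names lie above the upper line or on it and 7 below the lower one, and the names of highest level lie between the solid and the lower dashed line.

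The largest rise was that of miR1043-3p, of a moss family, at 582.8 RPM in PRE and 18.4 RPM in SDH, a 31.7-fold difference. Its level was 859.5 RPM in HD, 6.9 RPM in MDH and 70.9 RPM in FRE, so that PRE lay nearer to HD than any other state did, and FRE lay far below both. It stood in place 61 of 280 by level in PRE and in place 153 in SDH. The other arm of its hairpin, miR1043-5p, was at 0.3 RPM in PRE and at 0 in SDH and was too scarce to test.

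miR903, another moss family with a single name, was at 597.2 RPM in PRE and 93.6 RPM in SDH, 6.38-fold higher. It was at 104.4, 191.2 and 257.6 RPM in HD, MDH and FRE, and PRE was its highest state. miR2080 was at 263.0 RPM in PRE and 102.0 RPM in SDH (2.58-fold), with 29.2, 114.3 and 59.1 RPM in HD, MDH and FRE. It too was highest in PRE.

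miR1221-3p was at 194.6 RPM in PRE and 71.5 RPM in SDH (2.72-fold). Its HD and FRE levels were 225.8 and 195.9 RPM, and MDH stood lowest at 16.0 RPM. The far more abundant miR1221-5p showed the largest gain in RPM of all names, at 5402 RPM in PRE and 3138 RPM in SDH, but at 1.72-fold it was not called. miR2083-3p was at 24.6 RPM in PRE and 3.7 RPM in SDH (6.65-fold), against 28.0, 4.0 and 7.5 RPM in HD, MDH and FRE. As with miR1043-3p, its HD and PRE levels stood apart from the other states.

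Among scarcer names, miR902l-3p was at 23.8 RPM in PRE and 9.1 RPM in SDH, and miR1076-5p at 16.8 RPM in PRE and 5.6 RPM in SDH. miR1073-5p was at 7.3 RPM in PRE and 0.5 RPM in SDH. These are low levels, and with a pseudocount of 10 RPM none of the 3 was called. miR1217-5p at 6.2 RPM in PRE and 1.4 RPM in SDH, miR1066 at 7.6 RPM in PRE and 3.3 RPM in SDH and, on the lower side, miR1041 at 1.7 RPM in PRE and 6.4 RPM in SDH complete the calls. They lay under the 10 RPM set for naming and were named after their values were seen. miR1217-5p reached the minimum of 3 RPM through PRE alone, and miR1041 through SDH alone. miR1066 was exactly at the 2-fold limit.

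**Figure D2:**
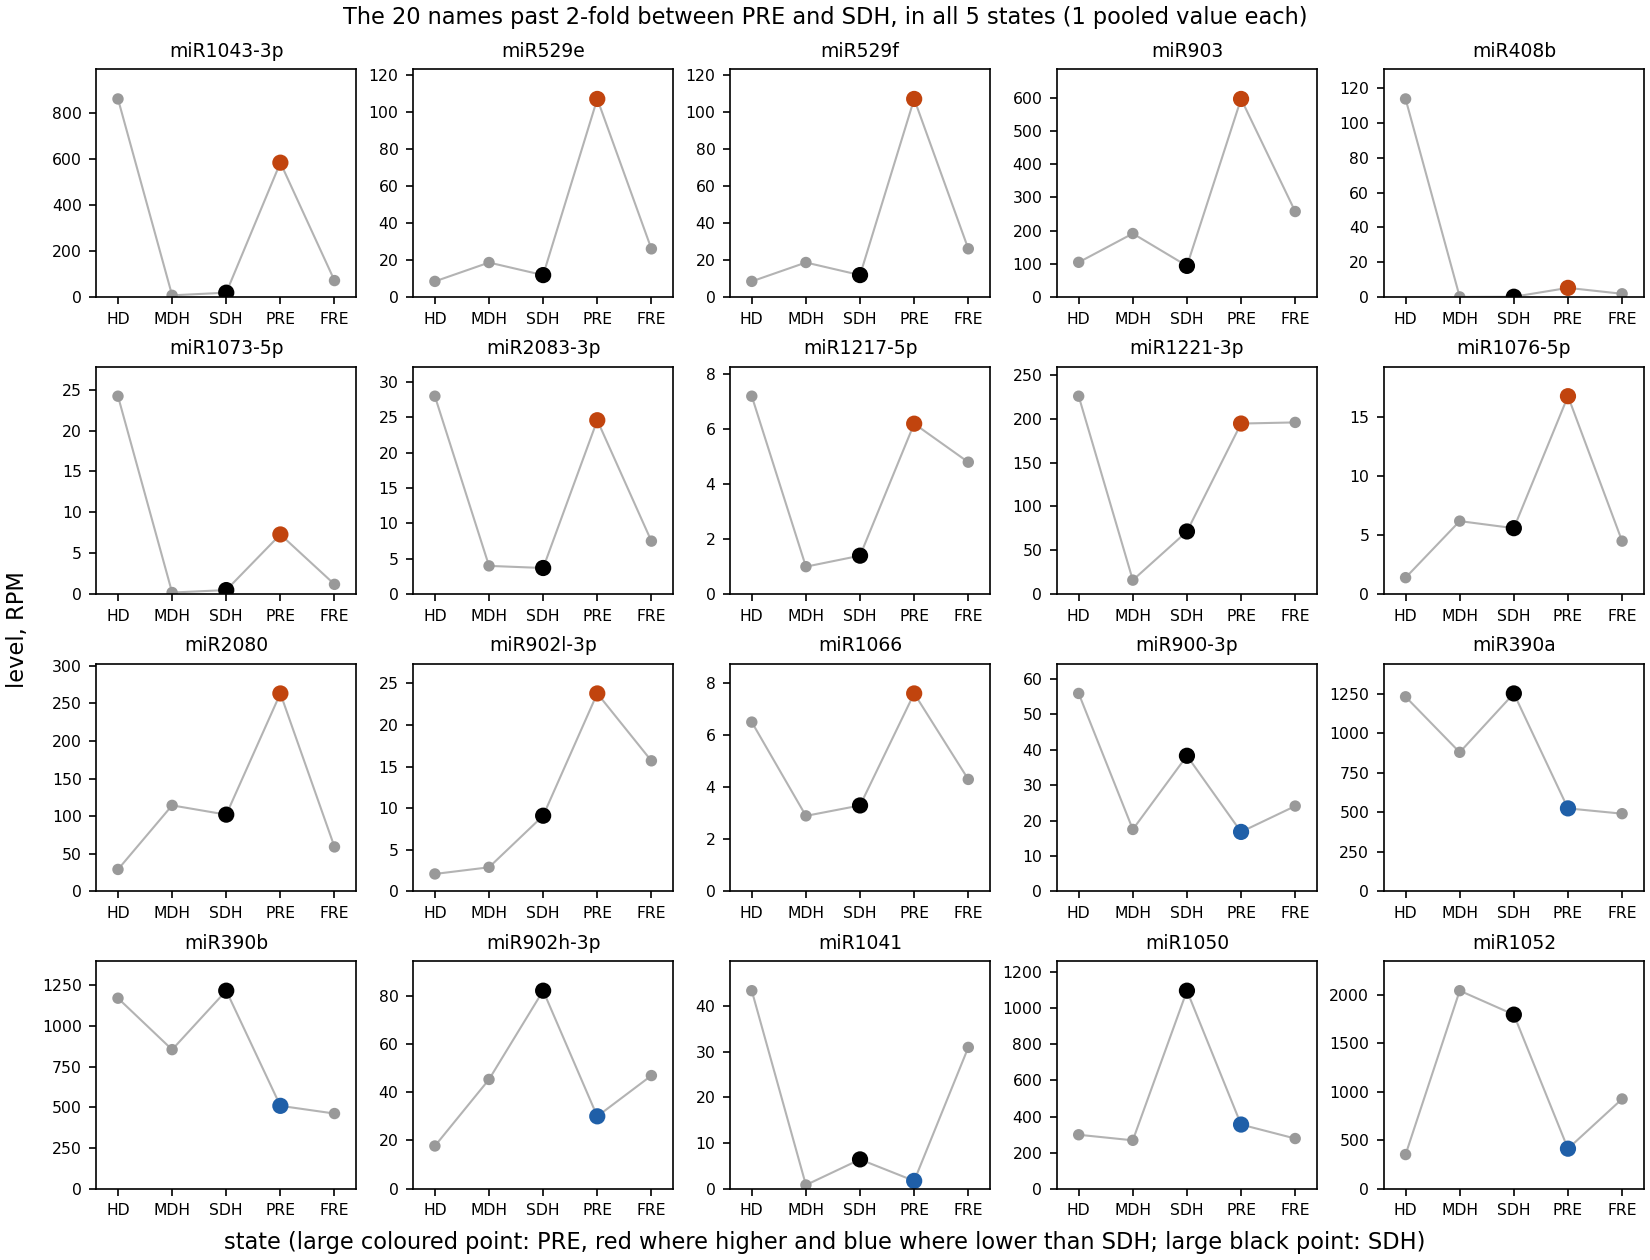
Level in RPM, on a linear axis from 0, of the 20 called names in HD, MDH, SDH, PRE and FRE, 1 deposited value per state and no error. PRE (large coloured point) was the highest of the 5 states in 7 of the 13 names that rose, and SDH (large black point) was the highest in 4 of the 7 that fell. With scaling to the sum these counts were 11 and 4, and with median-of-ratios scaling 7 and 3.

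Of the 13 names that rose, PRE was the highest of the 5 states in 7, namely miR529e, miR529f, miR903, miR2080, miR1076-5p, miR902l-3p and miR1066. Over all 211 tested names PRE was highest in 43. A call upward itself makes that place likelier, so the counts only describe the calls. In the other 6, miR1043-3p, miR408b, miR1073-5p, miR2083-3p, miR1217-5p and miR1221-3p, HD was the highest state in RPM. With scaling to the sum PRE was highest in 4 of these 6, miR1043-3p, miR2083-3p, miR1217-5p and miR1221-3p, so in 11 of the 13, and in 116 of all 211 names. With median-of-ratios scaling the count stayed at 7. SDH was the lowest of the 5 in miR903 and miR2083-3p, but HD was in miR903 with scaling to the sum. In miR1066 SDH was the lowest under both scalings, and MDH was in RPM as deposited.

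The largest fall was that of miR1052, a moss family with a single name, at 412.1 RPM in PRE and 1794 RPM in SDH (4.35-fold lower). It was at 351.6 RPM in HD, 2041 RPM in MDH and 924.6 RPM in FRE, so MDH and SDH were the highest states. As a share of the summed RPM it was 0.101% in PRE and 0.285% in SDH, against 0.0423% in HD, 0.405% in MDH and 0.162% in FRE. It alone was called lower under both scalings, since the others were under 2-fold with scaling to the sum. miR1050 was at 355.5 RPM in PRE and 1098 RPM in SDH (3.09-fold lower), and its HD, MDH and FRE levels of 298.9, 268.1 and 278.0 RPM set SDH apart from the other 4 states.

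miR902h-3p was at 30.0 RPM in PRE and 82.1 RPM in SDH (2.74-fold lower), with SDH the highest state and HD, at 17.7 RPM, the lowest. miR900-3p was at 16.8 RPM in PRE and 38.3 RPM in SDH (2.28-fold lower). PRE was its lowest state in RPM, close to the 17.5 RPM of MDH, and HD was highest at 55.9 RPM. With scaling to the sum MDH was lowest. The opposite arm, miR900-5p, was at 1057 RPM in PRE and 1892 RPM in SDH, 1.79-fold lower and not called.

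The families miR156, miR529 and miR535 have related sequences. miR156 and miR529 cut mRNAs of SPL genes, transcription factors that set the timing of shoot development. Of the 14 tested names of this list 2 rose and none fell, which is 14.3% higher, against 6.16% higher and 3.32% lower of all names tested. The 2 are near-identical copies. The list had a median log2 fold change of -0.65 against -0.18 for all names tested. It was -0.51 with median-of-ratios scaling and -0.02 with scaling to the sum. The list's mean of -0.10 lay far above its median because of the 2 names that rose.

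Those 2 were miR529e, at 107.1 RPM in PRE and 11.8 RPM in SDH (9.08-fold higher), and miR529f, at 107.0 RPM in PRE and 11.8 RPM in SDH. Their levels in HD, MDH and FRE were 8.4, 18.6 and 26.0 RPM for both names, so they count as 1 observation, and PRE exceeded every other state. The rest of the family had negative log2 fold changes and was not called. miR529b was at 1591 RPM in PRE and 2042 RPM in SDH, and miR529a and miR529c differed from it by little. miR529d was at 265.5 RPM in PRE and 404.6 RPM in SDH, 1.52-fold lower. The family sum was 5256 RPM in PRE and 6550 RPM in SDH, which is -0.32 in log2.

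miR156 came close to a call. miR156a was at 19250 RPM in PRE and 37437 RPM in SDH (1.94-fold lower), miR156c was a near-identical copy, and miR156b was at 13734 RPM in PRE and 26391 RPM in SDH (1.92-fold lower). In HD miR156a was at 47234 RPM and miR156b at 37601 RPM. Their median log2 fold change of -0.96 was -0.82 with median-of-ratios scaling and -0.33 with scaling to the sum. In FRE miR156a stood at 21727 RPM, near the PRE level, and miR156b at 12903 RPM, under it.

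The 4 miR535 names lay at log2 fold changes between -0.70 and -0.69. miR535d, the most abundant name, was at 48898 RPM in PRE and 79535 RPM in SDH (1.63-fold lower), and at 129549, 63177 and 84852 RPM in HD, MDH and FRE. PRE was its lowest state. The family held 44.7% of the summed RPM in PRE and 46.8% in SDH, and scaled to the sum its median was -0.06. miR156 held 12.8% in PRE and 16.1% in SDH. The difference of 221915 RPM between the summed levels was thus made up to 50.6% by miR535, 22.1% by miR156 and 11.1% by miR536, and with copies counted once to 46.9% by miR535, 25.0% by miR156, 9.97% by miR1023, 6.46% by miR1214 and 4.98% by miR536.

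All 13 names with a mean level of the 2 states above 10000 RPM had negative log2 fold changes, between -0.96 and -0.54, of which miR1023a-3p and miR1214 turned positive with scaling to the sum. They came from 5 families, miR156, miR535, miR536, miR1023 and miR1214, and from 7 sets of copies. None was called, against 9.48% of all names tested. Median log2 fold changes were -0.32 for 39 names from 1000 RPM up to that level, -0.17 for 47 names from 100 to 1000 RPM, 0.08 for 74 names from 10 to 100 RPM and -0.15 for 38 names under 10 RPM. The ranges of level were chosen after the values were seen. Called higher were 4 of the 38 names under 10 RPM, 5 of the 74 from 10 to 100 RPM and 4 of the 47 from 100 to 1000 RPM. None was called higher above that, and 6.16% were of all names tested.

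**Figure D3:**
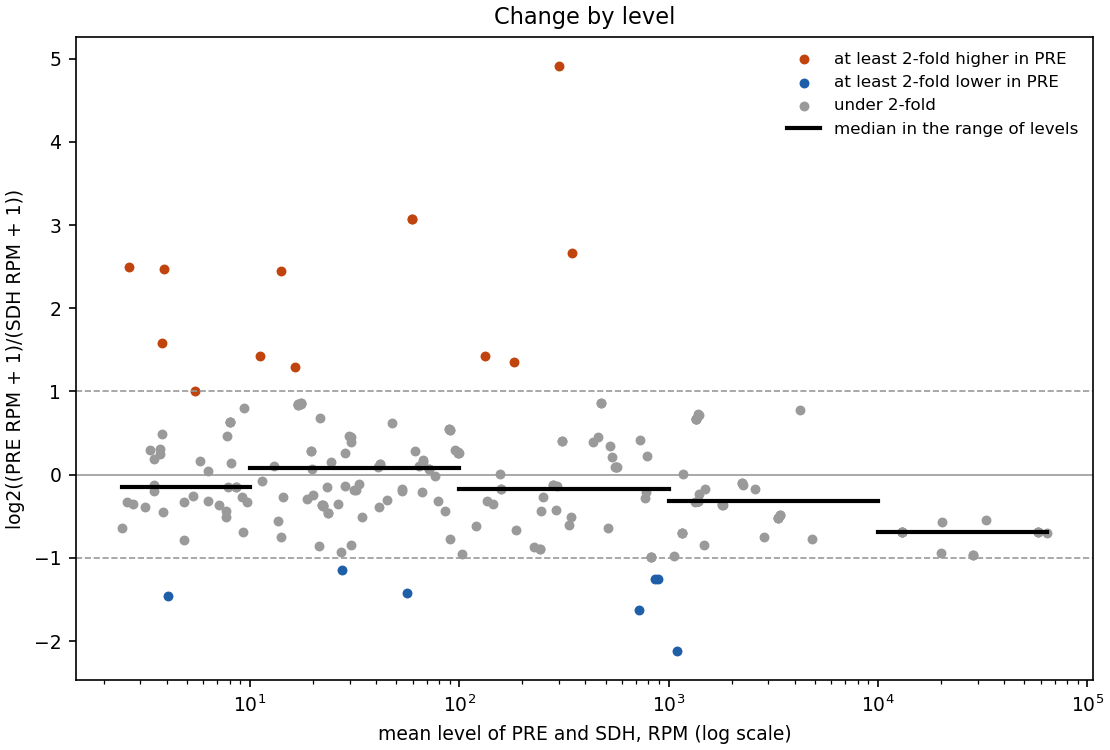
log2((PRE RPM + 1)/(SDH RPM + 1)) of the 211 tested names (vertical) by the mean level of the 2 states in RPM (horizontal, log axis), with the median of each range of levels as a black bar. The 13 names above 10000 RPM all lie under 0, at a median of -0.69. None of them was called, against 9.48% of all names tested, and 2, miR1023a-3p and miR1214, turned positive with scaling to the sum.

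Among the other regulators of developmental genes, none of 26 tested names, in 12 sets of copies, was called, against 9.48% of all names tested. The list's median log2 fold change was -0.32, -0.17 with median-of-ratios scaling and 0.31 with scaling to the sum. miR166 guides the slicing of HD-ZIP III mRNAs, which encode transcription factors of leaf and vascular patterning in flowering plants. All 13 names of it were negative, in 3 sets by level, and with scaling to the sum miR166j, miR166k and miR166l alone stayed so. miR166j, miR166k and miR166l were at 553.2 RPM in PRE and 1103 RPM in SDH (1.99-fold lower), just short of a call. miR166a to miR166i had log2 fold changes of about -0.32, as miR166a with 1236 RPM in PRE and 1539 RPM in SDH. miR166m, the most abundant, was at 2427 RPM in PRE and 2740 RPM in SDH (1.13-fold lower).

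miR319, whose family targets TCP and MYB transcription factors in flowering plants, was split by strand. Its most abundant name, the star strand miR319d.2*, was at 3572 RPM in PRE and 6112 RPM in SDH (1.71-fold lower), while miR319d was at 70.9 RPM in PRE and 62.8 RPM in SDH. The other star strand, miR319d.1*, was at 208.4 RPM in PRE and 281.3 RPM in SDH. Which star strand pairs with miR319d was not checked. miR319b, at 34.6 RPM in PRE and 24.8 RPM in SDH, had the largest positive log2 fold change of the list, 0.46. The family median of 0.15 and the log2 fold change of its summed RPM, -0.71, thus had opposite signs. In FRE miR319d.2* was at 14558 RPM, its highest state.

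In this moss miR538 is directed at MADS-box genes, and miR538a was at 2177 RPM in PRE and 2367 RPM in SDH. miR171a, of a family directed at GRAS genes, was at 21.7 RPM in PRE and 17.6 RPM in SDH. The level of miR534a, a regulator of moss BLADE-ON-PETIOLE homologues, was 13.5 RPM in PRE and 12.5 RPM in SDH. Of the tested names of these 3 families miR171a differed most, at 1.23-fold.

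Of 16 tested auxin-related names 2 fell and none rose, which is 12.5% lower, against 6.16% higher and 3.32% lower of all names tested. The 2 are miR390a and miR390b, with similar levels in all 5 states, just outside the limit for near-identical copies. The share thus rests on 1 family. miR390 cuts TAS3 transcripts, and the small interfering RNAs made from them act on auxin response factor genes. miR390a was at 525.4 RPM in PRE and 1253 RPM in SDH (2.38-fold lower), and miR390b at 509.3 RPM in PRE and 1217 RPM in SDH (2.39-fold lower). Both were about as low in FRE, at 491.9 and 461.9 RPM, while HD had 1232 and 1171 RPM and MDH 880.2 and 854.9 RPM. The rewetted states were therefore both under the hydrated and the dehydrated ones. miR390c had another course, with 161.0 RPM in PRE and 294.3 RPM in SDH (1.83-fold lower, not called), 985.5 RPM in HD, 179.4 RPM in MDH and 399.7 RPM in FRE. Its star strand miR390c* was at 8.6 RPM in PRE and 7.7 RPM in SDH. The family summed to 1204 RPM in PRE and 2772 RPM in SDH, which is -1.20 in log2. miR390a and miR390b remained called with median-of-ratios scaling but not with scaling to the sum.

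miR160 and, in moss, miR1219 act on auxin response factor mRNAs directly, and no name of either was called. miR160a was at 43.6 RPM in PRE and 39.9 RPM in SDH, and miR160c, with the most negative value of the family, at 6.2 RPM in PRE and 9.2 RPM in SDH. The 4 miR1219 names were positive, with miR1219d at 12.2 RPM in PRE and 6.6 RPM in SDH. miR167 was listed at 0 in both states. The auxin-related list had a median log2 fold change of -0.03, which became 0.10 with median-of-ratios scaling and 0.56 with scaling to the sum.

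Of the nutrient and copper list, miR408b was the sole tested name. Its family targets mRNAs of copper proteins. miR408b was at 5.2 RPM in PRE and 0.1 RPM in SDH, and the call rests on a level in SDH of the smallest step in the table. It was at 113.8 RPM in HD, at 0 in MDH and at 1.8 RPM in FRE. PRE was thus the highest of the 4 states after HD, yet far below HD. miR395 and the name miR408 were listed at 0 in both states. With a pseudocount of 10 RPM the log2 fold change of miR408b was 0.59.

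In the small RNA machinery list, none of 3 tested names was called, against 9.48% of all names tested. miR904, which targets the AGO1 gene in moss, was at 1737 RPM in PRE and 1055 RPM in SDH for miR904a (1.65-fold) and at 1722 RPM in PRE and 1042 RPM in SDH for miR904b. These are near-identical copies with PRE as their highest state, and HD as their lowest with 740.2 and 730.6 RPM. miR1047-3p, from an intron of a moss DICER-LIKE1 gene, was at 8.2 RPM in PRE and 10.1 RPM in SDH. The list's median of 0.72 became 0.22 with copies counted once.

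None of the 16 names of miR477 and miR536, in 9 sets of copies, was called, against 9.48% of all names tested. The 2 families differed in sign. Of 10 miR477 names 9 were positive, led by miR477g-3p at 839.6 RPM in PRE and 626.2 RPM in SDH (1.34-fold), and the exception miR477h was at 76.6 RPM in PRE and 77.3 RPM in SDH. The most abundant, miR477d, was at 851.8 RPM in PRE and 727.5 RPM in SDH, and at 263.0 RPM in HD. PRE was the highest state of miR477d and miR477g-3p. Of the 6 miR536 names 4 were near-identical, among them miR536b at 9958 RPM in PRE and 16109 RPM in SDH (1.62-fold lower). The scarce miR536f stood on the other side, at 57.9 RPM in PRE and 37.2 RPM in SDH. The median over both families was 0.10, while the 2 family sums had a median of -0.23.

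Of 135 tested names of other moss families 10 rose and 5 fell, which is 7.41% and 3.70%, near the 6.16% and 3.32% of all names. Their median log2 fold change of -0.18 was -0.03 and 0.42 under the 2 scalings. miR902 was the largest of them, with 21 of 23 names negative, 1 called higher (miR902l-3p) and 1 lower (miR902h-3p). Its most abundant names, miR902c-3p, miR902e-3p and miR902g-3p, had the same level of 881.9 RPM in PRE and about 1437 RPM in SDH. The family summed to 3525 RPM in PRE and 5728 RPM in SDH. Its median of -0.37 turned to 0.23 with scaling to the sum.

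miR1023a-3p, the most abundant of these moss names in both states, was at 26612 RPM in PRE and 38776 RPM in SDH (1.46-fold lower), and at 3805, 45433 and 24258 RPM in HD, MDH and FRE. Its relative miR1023e-3p was at 156.7 RPM in PRE and 155.4 RPM in SDH, against 1744 RPM in HD, so that PRE and SDH lay close together. miR1073-3p, at 67.7 RPM in PRE and 55.6 RPM in SDH against 744.9 RPM in HD, was likewise under 2-fold.

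Several moss families were positive in all tested names without a call. miR1026 came closest, at a median log2 fold change of 0.87, and miR1030 followed at 0.85. The 7 tested miR1030 names, all near-identical, were at 22.1 to 22.9 RPM in PRE and 11.9 to 12.2 RPM in SDH. The scarce miR1030h was at 1.9 RPM in both. PRE stood alone, since HD, MDH and FRE had 10.4, 11.5 and 12.1 RPM for miR1030b. The 4 copies of miR537 were at 1656 RPM in PRE and 1041 RPM in SDH (1.59-fold). miR1026, which in this moss targets the mRNA of the transcription factor PpbHLH, was at 617.4 RPM in PRE and 338.1 RPM in SDH for miR1026a (1.83-fold), and it is listed with 2 near-identical names. HD, MDH and FRE had 749.8, 113.5 and 757.2 RPM. With median-of-ratios scaling both miR1026 names passed 2-fold, the only 2 names gained. All 8 miR1063 names were positive too, between 0.26 and 0.55, as miR1063d with 106.5 RPM in PRE and 72.3 RPM in SDH.

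On the negative side stood all 5 miR1033 names, with miR1033b at 2845 RPM in PRE and 3970 RPM in SDH (1.40-fold lower), and all 10 miR1223 names, with miR1223a at 399.6 RPM in PRE and 622.9 RPM in SDH (1.56-fold lower). Of miR533, the star strand miR533a* was at 711.6 RPM in PRE and 1401 RPM in SDH (1.97-fold lower), while miR533a was at 279.4 RPM in PRE and 305.8 RPM in SDH. miR1214, with a single name, was at 16373 RPM in PRE and 24344 RPM in SDH (1.49-fold lower).

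**Figure D4:**
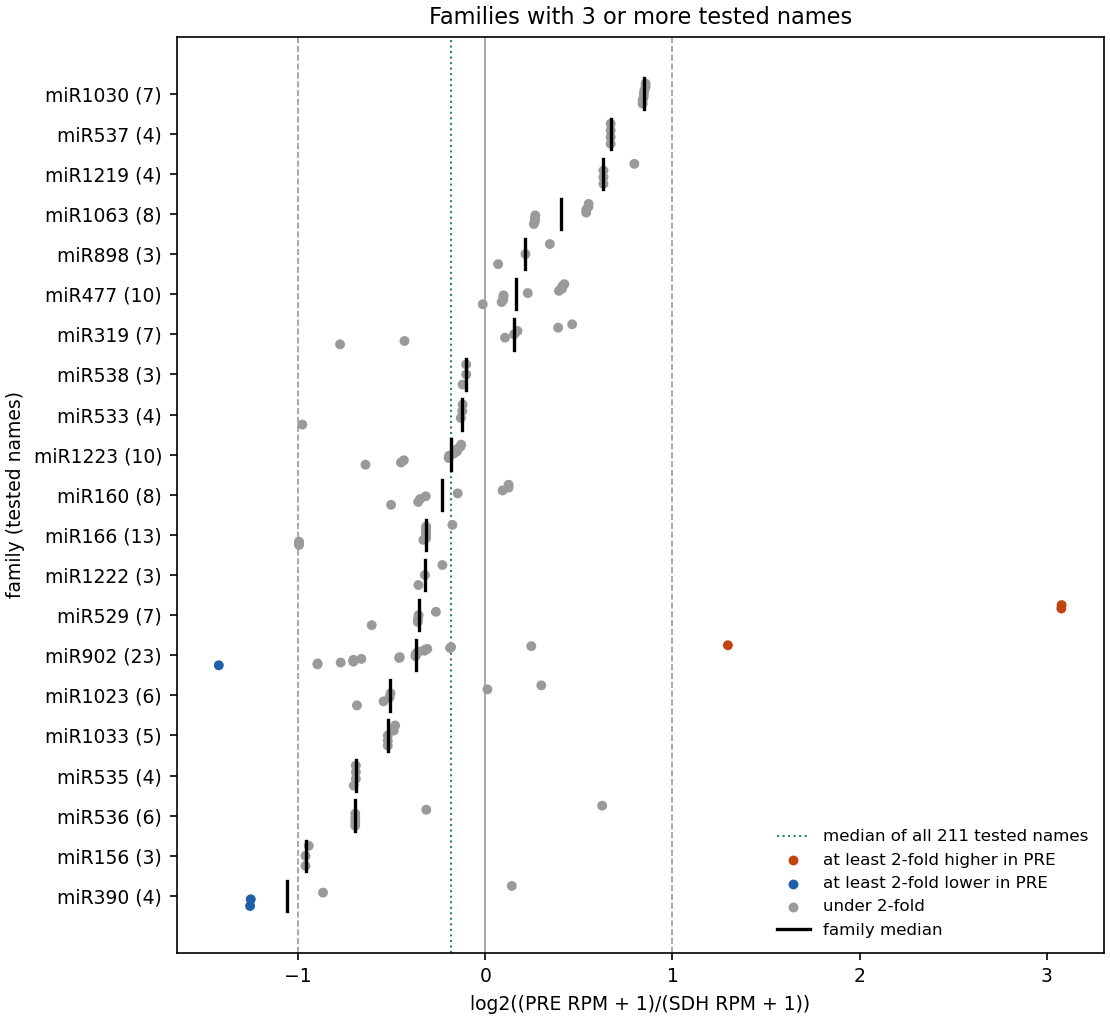
log2((PRE RPM + 1)/(SDH RPM + 1)) of each tested name (points) in the 21 families with 3 or more tested names, with the family median as a black bar and the median of all 211 tested names, -0.18, as a dotted line. In 18 of the families no name was called, against 9.48% called of all names tested. miR390 alone has its median past 2-fold, at -1.06, and it was -0.92 with median-of-ratios scaling.

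Of the 21 families with 3 or more tested names, 8 were negative and 5 positive in all tested names, and 8 held both signs. The median of miR390 was past 2-fold. It and the medians of miR156, miR535 and miR536 stayed negative under both scalings. Those of miR533 and miR538, -0.13 and -0.10, turned positive with median-of-ratios scaling. Scaling to the sum turned these and the medians of miR160, miR166, miR529, miR902, miR1023, miR1033, miR1222 and miR1223 positive as well.

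The arms of a hairpin come from 1 precursor and are cut together. Both arms were tested in 21 of 45 hairpins named with 5p and 3p. In 11 of the 21 the log2 fold changes of the arms lay within 0.5 of each other, as for miR1023a at -0.51 (5p) and -0.54 (3p), although its 3p arm was 944 times as abundant as its 5p arm in PRE and 955 times in SDH. The arms of miR477g, at 0.41 and 0.42, also kept their ratio. Hairpins were counted by name, and many of the 21 are of miR902. Among the 11 are miR902c, miR902e and miR902g, near-identical copies in both arms, which count as 1 observation. miR902f, miR902j and miR902k of the same family are among the 11 too. At least 1 arm was called in 8 hairpins, and in none of them were both. Each hairpin gives more than 1 name, and of all names tested 9.48% were called.

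In 5 hairpins the arms differed by 1 or more in log2 fold change. miR1076-5p rose, at 16.8 RPM in PRE and 5.6 RPM in SDH, while miR1076-3p was at 70.3 RPM in PRE and 136.6 RPM in SDH. The 3p arm was thus 4.18 times as abundant as the 5p arm in PRE and 24.4 times in SDH. For miR2083 the arms came near parity, with 1.44 reads of 5p per read of 3p in PRE and 6.92 in SDH, since miR2083-5p was at 35.5 RPM in PRE and 25.6 RPM in SDH. For miR902l the ratio of 5p to 3p was 1.24 in PRE and 3.69 in SDH. miR1217-3p was at 120.7 RPM in PRE and 150.5 RPM in SDH, with a scarce 5p arm that rose. miR1073 also belongs to the 5, with a 5p arm under 1 RPM in SDH. In each of the 5 the arm that rose was the less abundant. With a pseudocount of 10 RPM 1 hairpin was left. Reads shared with other loci could enter 1 arm alone, and their part in these ratios was not tested.

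**Figure D5:**
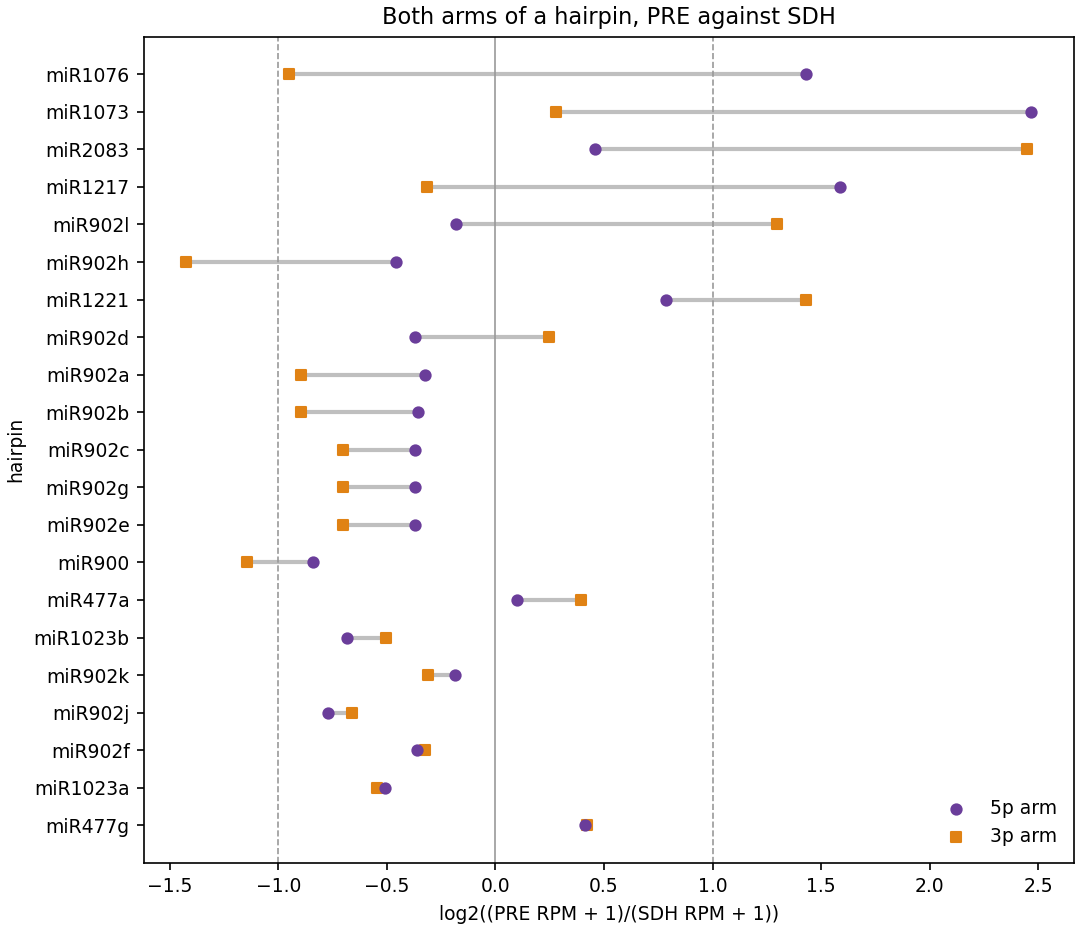
log2((PRE RPM + 1)/(SDH RPM + 1)) of the 5p arm (circles) and 3p arm (squares) of the 21 hairpins with both arms tested, in order of the gap between the arms. The gap is 2.38 for miR1076, where the arms lie on opposite sides of 0, and under 0.04 for miR1023a and miR477g.

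Of 27 tested star or less abundant arms 6 rose and 1 fell, which is 22.2% and 3.70%, against 6.16% higher and 3.32% lower of all names tested. These were miR1073-5p, miR2083-3p, miR1217-5p, miR1221-3p, miR1076-5p and miR902l-3p upward and miR900-3p downward. The list holds 51 names, and the rest were too scarce to test. miR1073-5p and miR1217-5p, at 0.5 and 1.4 RPM in SDH, reached the minimum of 3 RPM through PRE alone, which favours a call upward. With a pseudocount of 10 RPM miR1073-5p, miR1076-5p, miR902l-3p and miR900-3p were not called. The shares therefore only describe the calls. The list's median log2 fold change was -0.32 and its mean 0.14, so the 2 had opposite signs, and the median was 0.25 with scaling to the sum.

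The 69 names left out were under 3 RPM in both states, 18 of them at 0 in both. Just inside the minimum lay miR902f-3p, at 2.2 RPM in PRE and 3.0 RPM in SDH, and just under it miR1031a and miR1031b, each at 2.9 RPM in PRE and 0.4 RPM in SDH.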

How the data were processed

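Small RNA of 18 to 30 nt was sequenced; per the labels' protocols libraries were made by adaptor addition, reverse transcription and PCR. For aligner, genome build, miRNA reference, pooling of replicates and counting of shared reads, the step was not given in the sources used here. Of the deposited values, RPM in 4 tables of HD with 1 other state were used, and HD, identical in all, joined them. The authors' comparison tables for SDH and PRE give the same levels as a score of 10 per RPM, with a deposited total of 10000000 in each state. Every RPM lies on a step of 0.1, so depth per library is unknown and no interval was computed.

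From these, log2((PRE RPM + 1)/(SDH RPM + 1)) was computed with Python 3.11.15, pandas 2.3.3 and numpy 2.4.6, with a minimum of 3 RPM in the higher state and no test, since each state has 1 value. Named are the 15 largest rises and falls from 10 RPM up, the 5 largest gains and losses in RPM, the 5 most abundant names of SDH, and the extremes of each list and family. Lists, members and alternatives were chosen with earlier results of these data known. They are, by family number, SPL regulators (miR156, miR529, miR535), other developmental regulators (miR166, miR171, miR319, miR534, miR538), auxin-related (miR160, miR167, miR390, miR393, miR1219), nutrient and copper (miR395, miR397, miR398, miR399, miR408, miR827), small RNA machinery (miR162, miR168, miR403, miR904, miR1047), other conserved (miR477, miR536), other moss families, and star or less abundant arms. Near-identical copies are, by level and not by sequence, names of 1 family within 5% or 0.5 RPM in all 5 states. Of the 280 names 120 fall into 42 such sets. Near 0 RPM this limit also joins the different arms of a hairpin, as miR1028a-5p and miR1028a-3p. Median-of-ratios factors were 1.00 for PRE and 1.11 for SDH. The procedure was tested on simulated data, with changes past the 2-fold limit put only into names well above the minimum. That test therefore did not cover changes in names of low level or the choice of scaling. Mature sequences were not used here, and the planned description by first base, length and seed was not made.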

Additional observations from a re-analysis of the deposited data

How the results depend on the processing

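No paired analysis was possible because the columns carry 1 value per state and no replicate, and leaving out a replicate was not run for the same reason. Counts of 13 higher and 7 lower became 7 and 5 with a pseudocount of 10 RPM, 6 and 6 with a minimum of 30 RPM, 7 and 4 with names summed per family, 7 and 1 at 4-fold, and 47 and 1 with scaling to the sum over all names, which was chosen after the data were seen. They stayed within 1.5 times with a pseudocount of 0.1 RPM, median-of-ratios scaling, no minimum, a minimum of 10 RPM and 1 value per set of copies. PRE was the highest state in 7 of the 13 names that rose, and in 11 with scaling to the sum. The median of miR390 was -0.92 with median-of-ratios scaling and -0.43 with scaling to the sum. That scaling also took the medians of miR537 (1.30), miR1030 (1.44), miR1063 (1.02), miR1219 (1.19) and the small RNA machinery list (1.34) past 2-fold. A pseudocount of 10 RPM left the nutrient and copper list at 0.59 and 1 hairpin, of 5, with arms 1 or more apart. Of the 80 miRNAs named by rule, none changed sign while called. The pseudocount, the scaling or the smaller set of names sets these changes by construction, and which scaling fits these plants was not tested. Depth, unknown here, limits every name of a few RPM.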
